A study of Mus musculus with 142 samples.

Results

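The distal telomeric ends of the autosomes are described here from E/L Repli-seq, which sets the DNA that cells copy early in S phase against the DNA they copy late. For each of the 19 autosomes, the end was taken as the windows of 50 kb lying within 5 Mb of the last listed base, which gave 1900 of the 49264 windows (100 for each chromosome). F121-9 mouse embryonic stem cells, which hold 1 musculus and 1 castaneus homolog of each chromosome, were grown in 2i and LIF, labelled with BrdU for 2 h and sorted into early and late S phase, and each culture yields a profile of either homolog from reads that cover a SNP. RT is the log2 ratio of early over late reads, positive where a window is early and negative where it is late. All clones carry CRISPR-mediated deletions within the Dppa domain of chromosome 16, far from the ends.

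The deletions remove the early replication control elements (ERCEs) A, B and C, their binding sites for OCT4, SOX2 and NANOG (OSN), a further such site (Z), their transcription start sites (TSS), or parts of C. The 26 genotypes with values were A.B.COSN123, A.BOSN1.COSN123, A.BOSN12.BTSS.COSN123, A.BOSN12.COSN123, A.COSN12, A.COSN123, AOSN.B.COSN123, AOSN.BOSN12.COSN123, AOSN.COSN12, AOSN.COSN123, ATSS.BTSS.CTSS, BOSN1.COSN123, BOSN12.COSN123, BTSS, BTSS.CTSS, CL20k, COSN1, COSN1.2.8k, COSN12, COSN123, CR11.8k, CR13.4k, CR14.6k, CTSS, Z.AOSN.COSN123 and Z.B.C. They comprise 53 clones in 66 libraries, and the clone was the unit of the tests (the library in some alternatives). In 43 clones the deletion lay on musculus with a control castaneus homolog, in 2 clones it lay on castaneus, and in 8 clones the castaneus homolog carried a deletion as well. Since all clones descend from 1 cell line and many were made from each other in series, the p-values measure only the spread between these clones.

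In a mouse chromosome the centromere lies at one tip and the distal end at the other, where the DNA finishes in a telomere, an array of TTAGGG repeats bound by shelterin proteins that keep the tip from being treated as a break. Early replication generally goes with gene-rich, GC-rich, open chromatin, and late replication with gene-poor, AT-rich chromatin near the nuclear lamina. Whole domains copy together from clusters of origins, and the domain at a tip can be replicated by forks from its inner side alone.

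The assembly (RefSeq sequence of GRCm38, the build of the files) shows where the measured sequence stops. Each autosome closes with an unsequenced gap of 100 kb (17 chromosomes) or 150 kb (chromosomes 4 and 6), and on 18 of 19 the last sequenced base lies in an unbroken run of TTAGGG units. The number of TTAGGG units on the plus strand in the last 1 kb ranged from 0 to 114. The motif was searched as TTAGGG and, for the other strand, CCCTAA. Of all gap-free 1 kb tiles of the autosomes, 32.5% held at least 1 copy on either strand, and 0.0231% held 6 or more copies on 1 strand. The 1 chromosome without such a run at its last sequenced base was chromosome 4, whose last 120 bases before the gap are shown on the plus strand because they hold no TTAGGG unit.
chromosome 4, chr4:156357997-156358116: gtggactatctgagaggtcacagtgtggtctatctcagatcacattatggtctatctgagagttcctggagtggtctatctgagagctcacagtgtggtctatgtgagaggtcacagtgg

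The ends were earlier than the rest of the autosomes, and they differed widely among themselves. Averaged over the 19 ends, RT was 0.26 ± 0.064 (SD, n = 53 clones) in the distal 5 Mb and −0.024 ± 0.081 elsewhere on the same chromosomes. The difference was 0.29 ± 0.045 and positive in 53 of 53 clones (two-sided sign-flip permutation test over clones, p = 1e-05, the smallest that 100000 resamples give). Of the end windows with a value, 60.6% were early on average, against 47.2% of the other windows. The earlier RT was not confined to the distal 5 Mb. It averaged 0.11 ± 0.074 at 5 to 6 Mb from the end of the chromosome and 0.41 ± 0.070 at 6 to 8 Mb. At 8 to 10 Mb it was 0.13 ± 0.078, and farther in −0.035 ± 0.081. Between chromosomes, however, the SD of the end levels was 0.66, and 14 ends were early on average while 5 were late. After Benjamini-Hochberg adjustment over the 19 chromosomes, 13 ends were earlier than the rest of their chromosome and 6 were later (chromosomes 3, 12, 13, 17, 18 and 19).

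The size of this difference depended on which windows were counted. Windows valued in under 80% of profiles were later than the others, though not in step with the share. In the ends, RT averaged 0.36 over the 1596 windows valued in at least 80% of profiles. It averaged −0.70 over the 125 windows valued in 50 to 80% and −0.21 over the 99 windows valued in under 50%. Restricted to the 952 end windows (and the other windows) valued in all profiles, the ends still lay above the rest, but by 0.060 ± 0.048 (SD, n = 53 clones), with the ends of chromosomes 6 (−0.048) and 10 (−0.23) then later than the rest of their chromosome, and the differences of chromosomes 2 (−0.023), 8 (−0.0039) and 19 (−0.0076) not past the test. Clones with fewer valued end windows had a higher mean end level (Pearson's r = −0.78, permutation p = 1e-05, adjusted p = 3e-05 over 3 relations, Spearman's rho = −0.68, permutation p = 1e-05, r = −0.74 without the 2 farthest clones). Over the windows valued in all profiles r was −0.40 (permutation p = 0.00313, adjusted p = 0.0047) and rho was −0.33 (permutation p = 0.016), with r = −0.31 without the 2 farthest clones.

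**Figure D1:**
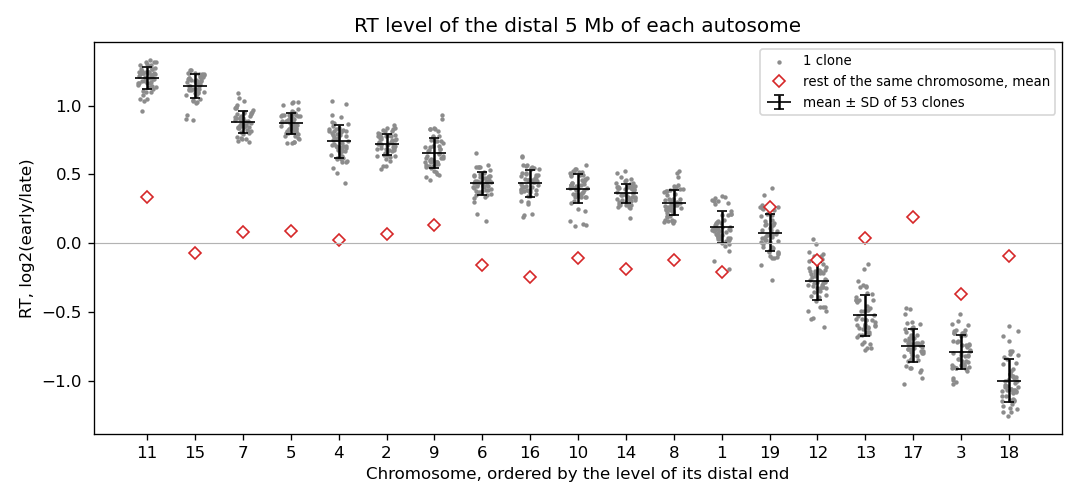
RT, log2(early/late), of the distal 5 Mb of each autosome, ordered from early to late. Grey points are the 53 clones, black bars the mean ± SD of clones, and open red diamonds the mean of the rest of the same chromosome. The ends run from 1.199 (chromosome 11) to −1.0 (chromosome 18), and those of chromosomes 19, 12, 13, 17, 3 and 18 lie below the rest of their chromosome.

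The earliest ends were those of chromosomes 11 and 15. The chromosome 11 end (chr11:117100001-122082543) had an RT of 1.199 ± 0.081 (SD, n = 53), from 0.96 in the lowest clone through a median of 1.21 to 1.33 in the highest. It ranked 7 of 489 among all 5 Mb segments of the autosomes, and all 98 of its valued windows were early. Its earliest window (1.40 ± 0.14) overlaps Dnah17, an axonemal dynein heavy chain, and Cyth1, a guanine exchange factor for ARF proteins. Its latest window (0.34 ± 0.30) lies within Rbfox3, which encodes the neuronal splicing factor NeuN. The chromosome 15 end had an RT of 1.14 ± 0.085, from 0.90 through a median of 1.17 to 1.26. Its latest window, at −0.037 ± 0.26, overlaps Krt6a and Krt6b, keratins of stressed epithelium, and was the only late window among 98 with a value. Both ends are rich in genes, with 22 and 27.8 protein-coding starts per Mb, and in GC (49.6% and 46.8%).

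The chromosome 7 end followed at 0.88 ± 0.080 (lowest clone 0.74, median 0.87, highest 1.09) and chromosome 5 at 0.87 ± 0.078. The latest window of the chromosome 7 end, at 0.14 ± 0.21, overlaps Ins2, an insulin gene of an imprinted cluster, and its earliest (1.41 ± 0.15) lies 0.3915 Mb from the end of the chromosome and overlaps no protein-coding gene. As on chromosome 11, all 98 valued windows were early. The ends of chromosomes 4 (0.74 ± 0.12), 2 (0.72 ± 0.077) and 9 (0.66 ± 0.11) were also clearly early. A middle group spanned chromosome 6 (0.44 ± 0.085), chromosome 16 (0.44 ± 0.098), chromosome 10 (0.40 ± 0.11), chromosome 14 (0.36 ± 0.071) and chromosome 8 (0.29 ± 0.092). Chromosome 1 (0.12 ± 0.11) and chromosome 19 (0.075 ± 0.14) lay near 0, with clones on both sides of it.

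The late ends were those of chromosomes 12, 13, 17, 3 and 18. The chromosome 12 end had an RT of −0.27 ± 0.14 and reached from −0.61 to 0.034 over clones. It includes the distal part of the immunoglobulin heavy chain locus, and 45 of 53 clones had it below the rest of the chromosome. Chromosome 13 (−0.53 ± 0.15), chromosome 17 (−0.74 ± 0.12) and chromosome 3 (−0.79 ± 0.12) were below the rest of their chromosome in 53 of 53 clones. The latest end was that of chromosome 18 (chr18:85750001-90702639), at −1.0 ± 0.16, from −1.26 in the lowest clone through a median of −1.04 to −0.60 in the highest. It ranked 458 of 489 segments, 18 of 18 on its own chromosome. No clone had a late chromosome 11 end or an early chromosome 18 end. In the chromosome 17 end 90 of 98 valued windows were late, and it holds 0.6 protein-coding starts per Mb against 11.7 on the rest of that chromosome.

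Within the order of the 19 ends, 15 of the 18 neighbouring pairs differed beyond the spread between clones (sign-flip permutation test paired within clones, Benjamini-Hochberg adjusted over 18 pairs). The 3 pairs that did not were chromosomes 7 and 5 (difference 0.014 ± 0.083, permutation adjusted p = 0.253), chromosomes 4 and 2 (0.022 ± 0.10, permutation adjusted p = 0.146) and chromosomes 6 and 16 (0.00035 ± 0.088, permutation adjusted p = 0.978). Across the 19 ends, which share libraries and processing, the level went with the GC content of the end (r = 0.93, rho = 0.90), which ranged from 37.5% to 49.8%, and with its density of protein-coding starts (r = 0.71, rho = 0.81). Over all 489 segments the correlation of RT with GC was similar (r = 0.88). The level was less related to the mean of the rest of the chromosome (r = 0.31), to the chromosome's length (r = 0.24) and to the count of TTAGGG units in the last 1 kb (r = −0.18). These correlations are descriptions across regions, not tests.

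Inside the 5 Mb, most ends held both early and late windows, whereas chromosomes 7 and 11 held only early ones. The fitted slope towards the tip averaged 0.025 ± 0.026 per Mb over the 19 ends (SD, n = 53 clones, positive in 46, permutation p = 1e-05). Without the 6 windows next to the last value, which span 300 kb, it became −0.024 ± 0.020. By chromosome, RT rose towards the tip at 8 ends, fell at 10 and did neither at chromosome 11 (permutation tests, adjusted over 19). The steepest rises were on chromosomes 13 (0.51 ± 0.051 per Mb) and 2 (0.46 ± 0.087), and the steepest falls on chromosomes 8 (−0.35 ± 0.054) and 1 (−0.34 ± 0.065). Many of these slopes turned over 2 Mb or 10 Mb. On chromosome 13, RT climbed from −1.38 ± 0.22 at 4 to 5 Mb through −0.58 ± 0.16 at 2 to 3 Mb to 0.99 ± 0.18 in the last Mb. On chromosome 10, RT was −0.42 ± 0.12 at 4 to 5 Mb, 1.26 ± 0.12 at 3 to 4 Mb and 1.22 ± 0.18 at 2 to 3 Mb. In the last Mb of chromosome 10 it was −0.21 ± 0.13. On chromosome 18 the 3 Mb farthest from the tip lay between −1.32 and −1.26, and the last Mb at −0.26 ± 0.19.

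**Figure D2:**
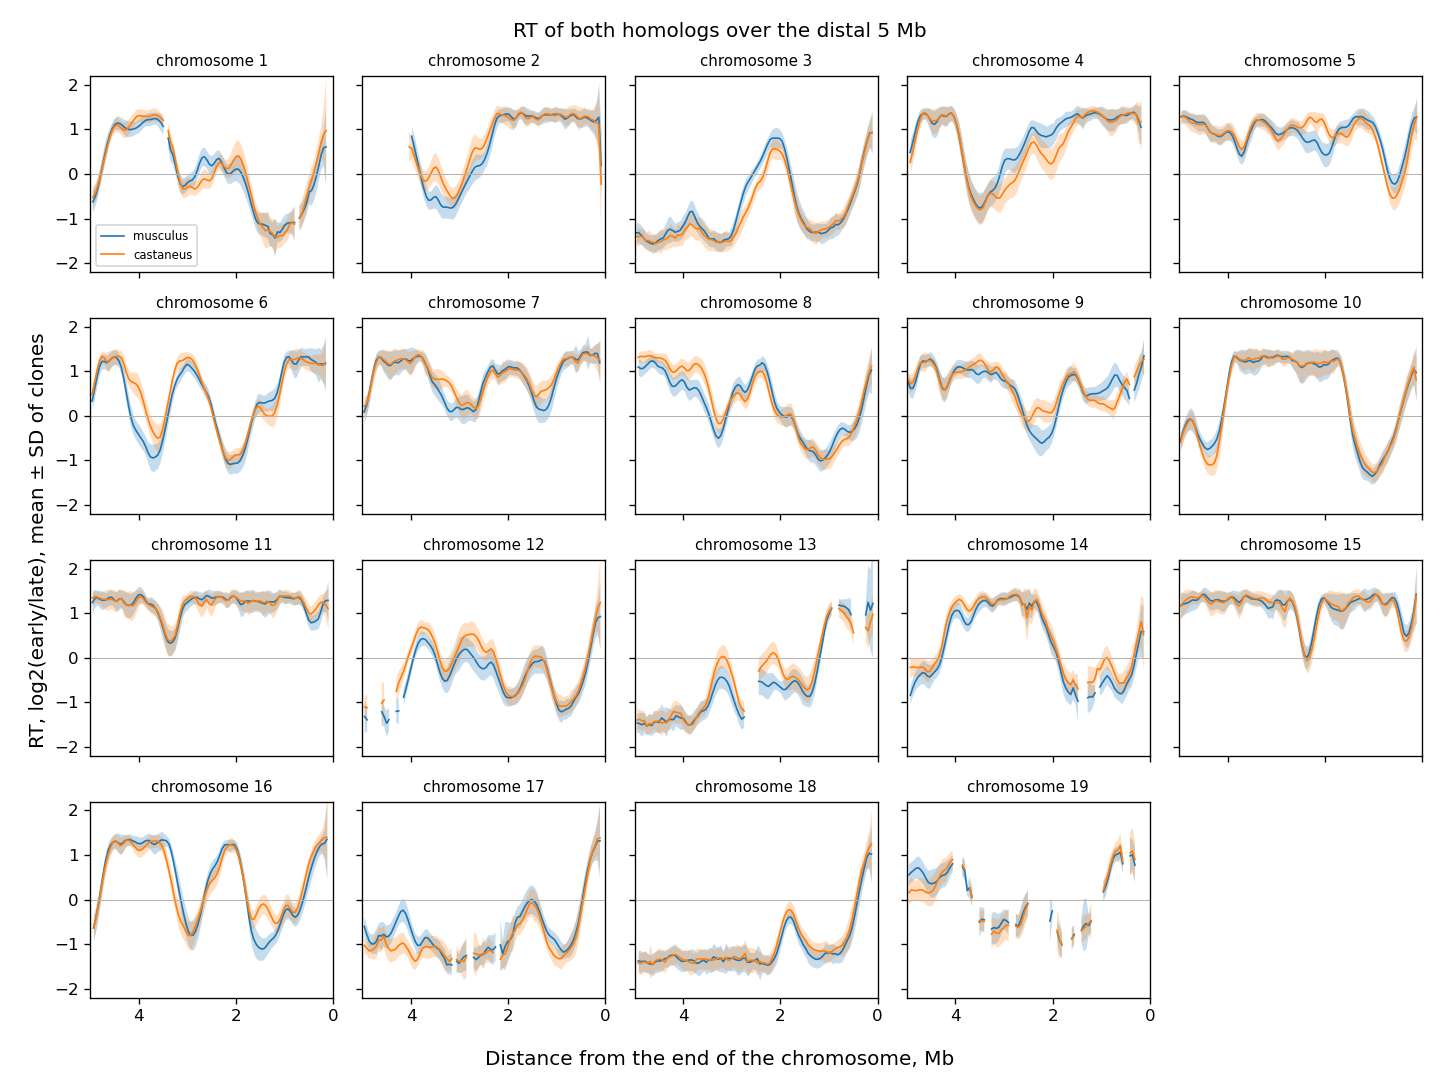
RT, log2(early/late), of the musculus (blue) and castaneus (orange) homologs against the distance from the end of the chromosome in Mb, 1 panel for each autosome. Lines are means and bands ± SD of the clones, shown where at least 10 clones have a value. On chromosomes 3, 10, 12, 17 and 18 the curve turns upwards in the last windows from a late domain.

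The outermost measured window was early at all 19 ends, whatever the state of the domain inside it. This result and its alternatives were chosen after the data were seen. The window taken was the last one with a value in at least 80% of profiles, between 84.7 and 582 kb from the end of the chromosome (median 141 kb). Its RT averaged 1.13 with an SD of 0.22 over the ends, and ran from 0.72 (chromosome 14) to 1.40 (chromosome 15). The windows 0.5 to 1 Mb further in averaged −0.033 with an SD of 0.99, and 11 of 19 were late. The outermost window lay above them at 15 ends, below them at chromosome 11, and did not pass the test at chromosomes 2, 4 and 15 (sign-flip permutation test over clones, adjusted over 19). At these 4 ends the inner windows were already early, between 1.31 and 1.35.

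The largest steps were those of chromosomes 17, 18, 10 and 3, where the inner windows were late. On chromosome 17 the outermost window had an RT of 1.35 ± 0.38 (n = 53 clones, lowest 0.65, highest 2.96) and the inner windows −1.11 ± 0.14, a difference of 2.46 ± 0.42 that was positive in 53 of 53 clones. On chromosome 18 the values were 1.10 ± 0.25 against −1.13 ± 0.15, on chromosome 10 they were 1.07 ± 0.30 against −1.09 ± 0.13, and on chromosome 3 they were 0.93 ± 0.26 against −1.13 ± 0.16. On chromosome 3 that window lies in Wls, which encodes the carrier that brings Wnt proteins to the cell surface and is the protein-coding gene nearest the tip, 1.02 kb from the gap. On chromosomes 3, 10, 17 and 18 the outermost window was early in all 53 clones. Chromosome 1 was the least even, with 0.74 ± 0.89 and 47 of 53 clones early, from −2.57 to 2.64. Both homologs showed it, with the musculus and castaneus means of the outermost window at 1.31 and 1.37 on chromosome 17 and at 0.92 and 0.91 on chromosome 3.

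The early stretch at the tip differed in length between ends. Where windows 0.5 to 1 Mb further in are late, the stretch must end before them, so the 1 follows in part from the other. Going inwards from the outermost window, 19 of 19 ends were early after 100 kb, 17 after 200 kb, 11 of 18 after 300 kb and 9 of 18 after 500 kb. The uninterrupted early stretch measured 150 kb on chromosomes 12 and 14, 250 kb on chromosomes 1, 3 and 8, and 300 kb on chromosomes 10 and 18, and it extended to 6600 kb on chromosome 7 and 8950 kb on chromosome 11. The authors smoothed over 300 kb, so windows within that distance share reads and are not separate measurements. At the sixth window inside the last one 12 of 19 ends were early. The first window on the centromere side, chosen by the same rule, was early on 8 of 19 chromosomes, with an RT of −0.10 (SD over chromosomes 0.77), against 0.30 in the windows 0.5 to 1 Mb further in. There the outermost window was above the inner ones on 4 chromosomes and below them on 13. Beside stretches of 150 kb or more without any value inside the chromosomes, 34.8% of 207 edge windows were early, against 52.8% of all windows valued in at least 80% of profiles.

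**Figure D3:**
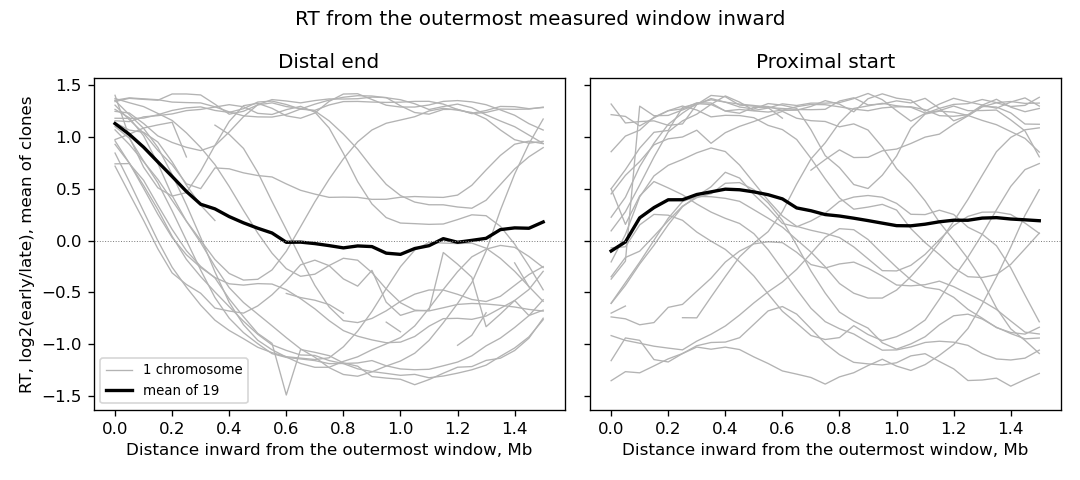
RT, log2(early/late), mean of clones, from the outermost window valued in at least 80% of profiles inwards to 1.5 Mb, at the distal end (left) and at the centromere side (right). Grey lines are the 19 chromosomes and black lines their mean. At the distal end all 19 lines start between 0.72 and 1.40, whereas on the centromere side they start between −1.35 and 1.31.

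The genes nearest the tips were of many kinds. They include Cr2 (a complement receptor) on chromosome 1, Rfc3 (a subunit of the clamp loader of DNA replication) on chromosome 5, Bicd1 (a dynein adaptor) on chromosome 6, Vmn2r87 (a vomeronasal receptor) on chromosome 10, Fgf14 (a fibroblast growth factor homolog of neurons) on chromosome 14 and Mettl4 (a methyltransferase) on chromosome 17. The windows holding their start sites were early for all 6, from 0.34 ± 0.30 at Cr2 and 0.45 ± 0.27 at Fgf14 to 1.18 ± 0.25 at Rfc3 and 1.21 ± 0.27 at Mettl4. The others were Gm14496 (chromosome 2), Wls (3), Vmn2r-ps159 (4), Mrgprd (7), 2610044O15Rik8 (8), Gm21836 (9), Ptchd3 (11), Tmem196 (12), Tcstv3 (13), Mucl2 (15), A630089N07Rik (16), Gm45871 (18) and Gm21060 (19), and their start windows lay between 0.75 and 1.37. That of Gm21060 had a value in 6.8% of profiles (9 clones), and those of Vmn2r-ps159 (65.9%) and Tcstv3 (68.0%) were also thin. On chromosomes 2, 8, 9, 12 and 16 the start window was the outermost window given above. Most of the others lie within the 300 kb smoothing span of that window. Their early RT is therefore not a result separate from that of the outermost windows. Of all windows valued in at least 80% of profiles, 52.8% were early. Annotated by GENCODE vM21, the genes nearest the tips stop between 1.02 and 195 kb short of the gap.

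The ends were covered about as well as the rest. A value was present in 87.4% ± 4.1 (SD, n = 53 clones) of end windows and 86.7% ± 5.2 of the others, a difference of 0.654 ± 1.71 percentage points that was positive in 30 of 53 clones (sign-flip permutation test, p = 0.00568). Within 2 Mb of the tip the difference was −2.53 points. Of the 1900 end windows 80 had no value in any profile, and 56.6% of their sequence was gap. The last value lay between 52.6 and 136.5 kb from the end of the chromosome.

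Coverage was uneven between chromosomes. It was highest on chromosome 5 (97.6%) and lowest on chromosome 19, where 57.2% of profile windows had a value against 87.4% on the rest of that chromosome, and 28 windows had none. On chromosome 19 a stretch of 400 kb (chr19:58950001-59350000) with the homeobox gene Vax1, the vesicular monoamine transporter Slc18a2 and 5 other protein-coding genes (named, like those of the next 2 stretches, after their values were seen) had values in fewer than 50% of profiles, with 7 of its 8 windows empty although the assembly has no gap there. On chromosome 2 the longest such stretch measured 950 kb (chr2:177150001-178100000) and holds 14 protein-coding genes, among them the zinc finger genes Zfp931, Zfp970, Zfp971 and Zfp972. On chromosome 13, 400 kb next to the tip holds Tcstv1, expressed at the 2-cell stage, and 8 other protein-coding genes. Coverage was also low on chromosomes 18 (77.3%, 52 windows valued in at least 80% of profiles) and 17 (78.6%, 69 windows). On chromosome 2 it was 77.2%, with 77 such windows. The levels of the ends of chromosomes 2, 13, 17, 18 and 19 therefore rest on fewer windows.

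**Figure D4:**
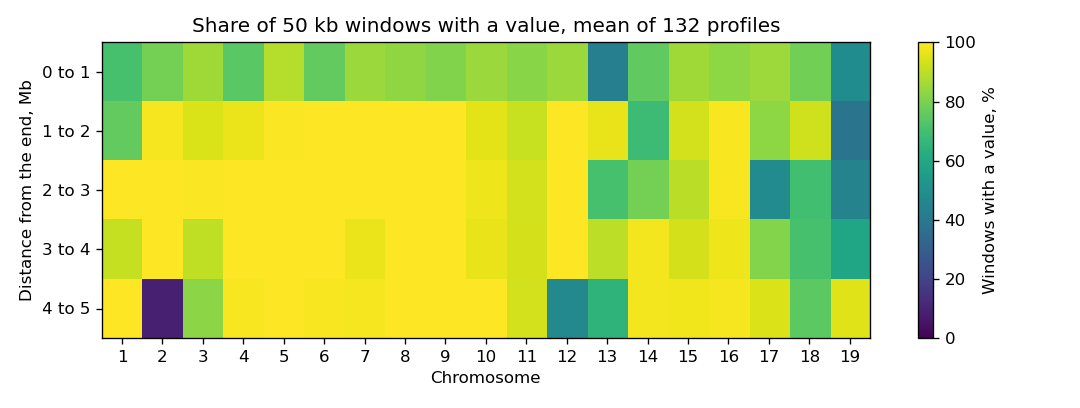
Share of 50 kb windows with a value (colour, %, mean over the profiles of both homologs) by chromosome and by distance from the end in steps of 1 Mb. Chromosome 19 is thinly covered over the last 4 Mb (38.3% to 59.3%), and chromosome 2 at 4 to 5 Mb (8.6%).

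The musculus and castaneus homologs differed little when whole ends were averaged. None of the 19 ends was called (limma on the musculus minus castaneus difference of each clone over all 5 Mb segments, adjusted p under 0.05 and 0.25 or more in size), against 3.89% of 489 segments. By p alone 18 ends passed, both before and after adjustment, and only chromosome 5 did not (0.0044 ± 0.050, adjusted p = 0.557). Most segments passed in this way too, with an adjusted p under 0.05 in 422 of all 489. The musculus homolog was earlier on chromosome 17 by 0.18 ± 0.082 (SD, n = 53, positive in 52 clones), on chromosome 4 by 0.17 ± 0.054 (53 of 53) and on chromosome 3 by 0.13 ± 0.066 (51 of 53). The castaneus homolog was earlier on chromosomes 12 (−0.20 ± 0.063), 14 (−0.18 ± 0.076), 13 (−0.18 ± 0.066), 6 (−0.15 ± 0.061) and 2 (−0.13 ± 0.060), with at most 1 clone of opposite sign on each. Values from both homologs were at hand in 47 to 53 clones, since 10 clones lacked every value of chromosome 11, 13, 14 or 16 on 1 homolog.

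**Figure D5:**
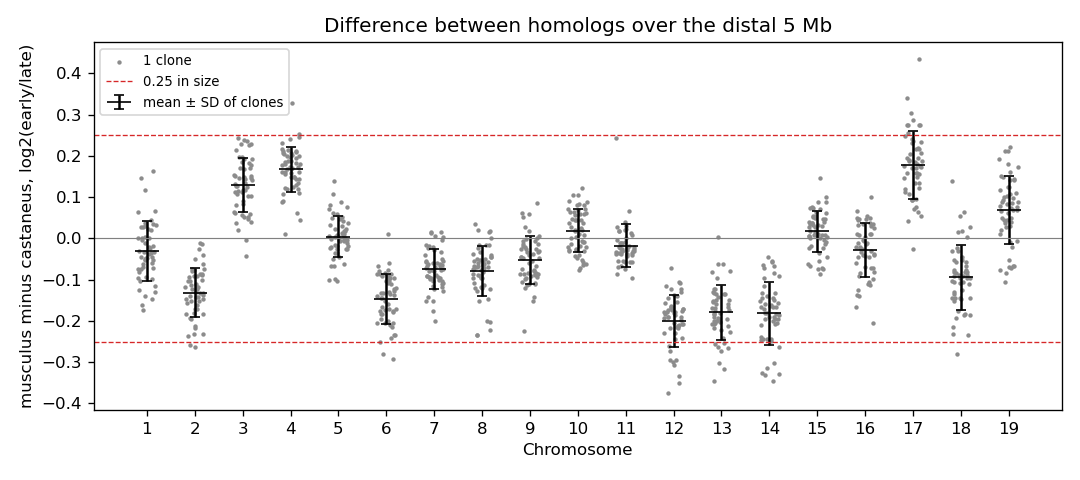
Difference in RT between the musculus and castaneus homologs, log2(early/late), averaged over the distal 5 Mb of each autosome. Grey points are clones, black bars their mean ± SD, and dashed red lines mark 0.25 in size. All 19 means lie inside the dashed lines, and the clones of chromosomes 2, 12 and 14 all lie below 0.

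Single domains inside the ends differed more. At the level of 50 kb windows, 103 of 1757 end windows tested (5.86%) passed (limma over all windows, adjusted p under 0.05 and 0.5 or more in size), against 5.4% of 45885 windows over the autosomes, so the ends held about the same share as the background. castaneus was earlier in 63 and musculus in 40. The windows formed 23 runs, 13 of them of 4 or more windows. Within 2 Mb of the tip lay 18 of the 103 windows, out of 678 tested there. The genes of these runs were chosen after their values were seen.

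The longest run, 550 kb on chromosome 6 (chr6:145500001-146050000), holds Lmntd1, Tuba3b, Rassf8, Bhlhe41 and Sspn, of which Bhlhe41 is a repressor of the circadian clock and Sspn a protein of the dystrophin complex. The musculus homolog had an RT of −0.47 and castaneus of 0.37, a difference of −0.84 ± 0.21 with castaneus earlier in 53 of 53 clones. Its window over Rassf8 had the largest mean difference of all end windows, −1.06 ± 0.29. On chromosome 16 a run of 350 kb within Dscam, a neuronal adhesion molecule, was earlier on castaneus (−1.04 on musculus and −0.22 on castaneus, difference −0.82 ± 0.25, 52 of 52 clones), while 250 kb at Kcnj6, a potassium channel, was earlier on musculus by 0.65 ± 0.18 in 52 of 52. These opposite runs lie in the same end, whose mean difference was −0.029 ± 0.065.

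On chromosome 4, runs at Prdm16 and Actrt2 (0.57 ± 0.20, 51 of 53) and at Ajap1 (0.59 ± 0.15, 53 of 53) were earlier on musculus. On chromosome 9, musculus was earlier over the chemokine receptor genes Ccr9, Cxcr6 and Xcr1 with Fyco1 (0.64 ± 0.23), and castaneus over Ano10 and Abhd5 (−0.66 ± 0.17), each in 53 of 53 clones. Further runs of 8 and 7 windows with castaneus earlier covered Kcnk1, Pcnx2 and 3 other genes on chromosome 8 (−0.58 ± 0.14) and Cdh26 on chromosome 2 (−0.61 ± 0.20). The ends of chromosomes 10, 11, 15 and 18 held no window that passed.

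The spread between clones was slightly larger in the ends. A clone deviated from the mean of all clones by 0.154 ± 0.040 (SD, n = 53) per end window and by 0.144 ± 0.035 elsewhere, a difference of 0.0095 ± 0.014 that was positive in 44 of 53 clones (sign-flip permutation test, p = 2e-05). It was largest at the tips, at 0.34 ± 0.16 over the 14 valued windows within 0.15 Mb of the end of the chromosome, 0.20 ± 0.073 between 0.15 and 0.5 Mb, and 0.14 ± 0.042 between 0.5 and 1 Mb. Without the 6 windows next to the last value the difference was 0.0051 ± 0.012. By chromosome, the SD of the end level between clones ran from 0.071 (chromosome 14) to 0.16 (chromosome 18), and late ends varied more than early ones (r = −0.79 between level and SD over the 19 ends). The level also went with the share of windows with a value (r = 0.48 over the 19 ends). The part of coverage in the larger SD was not tested. Repeat libraries of the same clone differed with an SD of 0.060 on average over ends. This covers the 10 clones with 2 libraries, without COSN123 clone A10, which has 4. The SD between clones was 0.11 on average and was the larger at 19 of 19 ends. The labels do not say whether the repeats of the 10 clones were separate cultures. For COSN123 clone A10 the paper states that they were.

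The window with the largest SD between clones lies in the thinly covered stretch of chromosome 2 (chr2:177300001-177350000), over Gm14412. Its RT was 1.27 ± 2.46 over the 13 clones with a value, from −6.09 to 4.23. Among end windows valued in at least 80% of profiles, the largest SD was that of the outermost window of chromosome 1, at 0.89. In all, 9 end values over 4 in size were found in the clone profiles.

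The genotypes differed at the ends, but no more often than elsewhere. Over 46 clones of the 19 genotypes with at least 2 clones, 16 of 19 ends passed (limma F test over all 5 Mb segments, adjusted p under 0.05), against 94.1% of 489 segments, and the ends of chromosomes 2, 11 and 14 did not. The largest ranges of genotype means were on chromosome 18, from −1.23 in ATSS.BTSS.CTSS to −0.68 in A.COSN12 (F = 6.51, adjusted p = 1.82e-05), and on chromosome 13, from −0.74 to −0.23 in the same genotypes (F = 6.35, adjusted p = 1.99e-05). ATSS.BTSS.CTSS had the lowest mean of the 19 genotypes on chromosomes 3, 6, 10, 13, 17 and 18 and the highest on chromosomes 4, 7 and 19. Among the libraries, 3 clones stood apart in the end windows, namely A1 and A8 of ATSS.BTSS.CTSS and B4 of Z.AOSN.COSN123. At least 1 profile of each correlated below 0.92 with the mean profile, against a median of 0.965 over all profiles. Without them 15 ends passed, against 86.9% of 489 segments. The share of end windows with a value ran from 79.8% to 93.2% over clones (median 88.0%) and was 92.8% to 93.2% in the 3 clones of ATSS.BTSS.CTSS, and its part in these differences was not tested. Genotype and the cultures or runs in which it was measured cannot be told apart.

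Chromosome 16 carries the deletions, and its end was compared between the deletion and the control homolog. In the 42 clones with the deletion on musculus and values on both homologs, the deletion homolog was slightly later, with a difference of −0.032 ± 0.068 (lowest −0.20, median −0.024, highest 0.10, negative in 27 of 42, sign-flip permutation test, p = 0.00422). After centring and scaling of each profile the difference was −0.020 (permutation p = 0.0564). In the same clones the musculus minus castaneus difference of the other ends ran from −0.20 (chromosome 12) to 0.18 (chromosome 17), and only those of chromosomes 5, 10, 11 and 15 were smaller in size than that of chromosome 16. Both clones with the deletion on castaneus had a musculus minus castaneus difference of the same sign, −0.072 (CR11.8k clone 50) and −0.059 (CTSS clone C4). In the 8 clones with deletions on both homologs it lay between −0.080 and 0.046. Within 2 Mb of the tip the difference was −0.30 ± 0.10, a stretch that includes the Dscam run. In the 42 clones, strain and deletion cannot be told apart.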

How the data were processed

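E/L Repli-seq was measured in early and late S-phase fractions of F121-9 clones (142 samples). The authors trimmed reads (Trim Galore, cutadapt), aligned them with bowtie2 to mm10 with SNPs masked, assigned them to homologs with SNPsplit, dropped duplicates (Samtools) and summed them over 50 kb windows (bedtools). They took the log2 ratio of early over late reads, scaled it, quantile-normalized it and smoothed it by loess over 300 kb before the log2 values were deposited. Tool versions are not given in the sources used here. Quantile normalization forces the same distribution on each profile, smoothing makes neighbouring windows depend on each other, and the outermost windows are smoothed from 1 side. Depth is unknown, since only ratios were at hand, so precision is given by the spread between clones.

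The table held 138 columns, all of which were used. Repeat runs (3 libraries) and repeat libraries were averaged to 53 clones. The 5 libraries without a column were not analysed here. Genotypes come from the labels, and homologs from the column headers (musculus is strain 129, castaneus is CAST). A window belonged to an end if it started within 5 Mb of the largest window end of its chromosome. The clone level is the mean of both homologs. Sign-flip permutation tests over clones used 100000 resamples. Differences between homologs and between genotypes were fitted with limma 3.58.1 over all 5 Mb segments (at least 10 windows each) or all windows with at least 10 clones, with Benjamini-Hochberg adjustment and a threshold of 0.05. Named genes (GENCODE vM21) are the protein-coding gene nearest each tip, the genes at the earliest and latest window of the 3 earliest and 3 latest ends, those at the window with the largest musculus minus castaneus difference of each end called (no end was), and the window with the largest SD between clones. Genes of runs that differed between homologs and of thinly covered stretches lie outside this rule and were chosen after their values were seen. Alternatives covered distance, windows used, homologs, units, scaling, thresholds and single clones left out. Windows valued in all profiles, values over 4 in size, the 3 clones that stand apart and the outermost windows were examined after the data were seen. The members and lists were chosen with earlier results of these data known. Scripts were tested on simulated data. Analyses used R 4.3.3 and Python 3.11.15 with numpy 2.4.6 and pandas 2.3.3. A difference between homologs at 1 gene and some end sequences are not reported here.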

Additional observations from a re-analysis of the deposited data

Results flagged for a closer look

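In genotypes with 4 to 10 clones, 76 sets of values were tested for a clone lying far from the others, and 5 had one. Chance alone sets apart about 1 in 20. Clone C9 of A.COSN123 lay far above the others at 2 ends, with an RT of 0.3322 on chromosome 1 (the other 3 clones 0.08925 to 0.1208) and 0.4548 on chromosome 16 (0.3777 to 0.3833). It had values in 83.7% of end windows, the others in 87.8% to 90.5%. Clone 5A.6 of AOSN.B.COSN123 had an RT of 0.2637 on chromosome 14 (the other 4 clones 0.3866 to 0.4308). Clone H10 of A.COSN123 stood apart in the musculus minus castaneus difference, with −0.1711 on chromosome 12 (the others −0.2178 to −0.2125) and −0.1816 on chromosome 14 (−0.06338 to −0.05423).

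The musculus minus castaneus difference itself varied between genotypes at 13 of the 17 ends that could be fitted (limma F test over segments, adjusted p under 0.05), against 69% of 439 segments. The adjusted p was 0.0008309 on chromosome 16, 0.002105 on chromosome 4, 0.002734 on chromosome 8, 0.002802 on chromosome 10, 0.003165 on chromosome 5, 0.004237 on chromosome 6 and 0.005131 on chromosome 7. It was 0.01519 on chromosome 12, 0.01667 on chromosome 18, 0.01868 on chromosome 1, 0.01964 on chromosome 13, 0.03995 on chromosome 2 and 0.04628 on chromosome 9. BOSN1.COSN123 had the lowest mean of the genotypes on chromosomes 1, 2, 6, 7, 8, 9, 10, 16 and 18, from −0.26 on chromosome 18 to −0.057 on chromosome 10. A.B.COSN123 had the lowest on chromosomes 5, 12 and 13. Both clones of each of these genotypes lacked every castaneus value of chromosome 11, as did clone F3 of AOSN.COSN12. The part of this loss in the differences was not tested. On chromosome 16 the genotype means ran from −0.16 (BOSN1.COSN123) to 0.037 (CL20k), and on chromosome 4 from 0.066 (ATSS.BTSS.CTSS) to 0.23 (BTSS.CTSS), where musculus was the earlier homolog in each genotype.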

How the results depend on the processing

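Over both homologs the ends stayed above the rest of the autosomes under every alternative, between 0.060 (windows valued in all profiles) and 0.36 (median in place of mean). The gradient averaged over ends reversed to −0.02428 without the 6 windows next to the last value, and the difference in the share of windows reversed to −2.526 points within 2 Mb. Within 2 Mb 1 end (chromosome 16) was called for musculus minus castaneus and 18 of 678 windows passed, while a size of 0.25 called 371 of 1757 end windows. The 18 windows come from the test over all windows, in which 5.4% of 45885 passed, so called windows were scarcer there. The share over all 2 Mb segments, and over all windows at a size of 0.25, is not given. The deletion minus control difference on chromosome 16 lost its call after centring and scaling (−0.02032), and at the sixth window inside the last one 12 ends were early. Leaving out each clone in turn gave 0 ends called for musculus minus castaneus and 15 to 17 for genotypes. With the replicate block, in clones with 2 repeat libraries, 12 of 19 ends passed, against 71.2% of 489 segments. Without it 12 ends passed, against 66.5% of segments. The difference between repeats 1 and 2 of a clone was compared between clones (45 pairs, correlation −0.53 to 0.72, median 0.24). In 31 pairs it was over 0.1, so repeats of the same number often deviated together. The cause was not tested.

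By chromosome, the end minus rest difference reversed within 2 Mb on chromosomes 1 (−0.3559), 8 (−0.2489), 13 (0.1341) and 14 (−0.1986), within 10 Mb on 12 (0.3055) and 14 (−0.01281), and over windows valued in all profiles on 2 (−0.02291), 6 (−0.04844), 8 (−0.003903) and 10 (−0.2297). It lost its call within 2 Mb on 10 (0.030) and over windows valued in all profiles on 19 (−0.0076). The gradient reversed within 2 Mb on chromosomes 1 (0.3283), 2 (−0.06829), 8 (0.4189), 9 (0.1973), 11 (−0.1099), 12 (0.3808), 14 (0.2687), 16 (0.7748) and 19 (1.578). Within 10 Mb it reversed on 1 (0.02786), 3 (−0.007601), 4 (−0.05698), 9 (0.06867), 10 (0.026), 13 (−0.08349), 14 (0.1758), 15 (0.1136), 16 (0.06786), 17 (−0.2035), 18 (−0.1073) and 19 (0.07464). It also reversed without the 6 windows on 6 (−0.03405) and 7 (−0.007713), and over windows valued in all profiles on 3 (−0.006932), 6 (−0.2029) and 10 (0.09125). The cause was not tested. In all, direction and call were kept in 140 of 152 cases for the difference and 84 of 114 for the gradient. Depth is unknown, so precision could not be weighed by reads.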
